A study of Mus musculus with 25 samples.

Results

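Regenerating myofibers that lack mitofusin 2, a protein of the outer mitochondrial membrane needed for mitochondrial fusion, were profiled by chromatin immunoprecipitation sequencing (ChIP-seq) for H3K9me3 and H3K27me3, and the 2 marks are compared here within this genotype. The data are the 6 peak lists of the mfn2-/- libraries, 3 replicates per mark, restricted to chromosomes 1 to 19. These lists held 10471 autosomal peaks, 3100 for H3K9me3 and 7371 for H3K27me3, of 14121 peaks on all chromosomes of this genotype and 55242 in the 24 lists of the series. Per the labels, the mfn2-/- mice had a Cre(ERT2) recombinase driven by Pax7, a gene of muscle stem cells, together with the mito-Dendra2 reporter, which marks the progeny of those cells. Tamoxifen at 75 mg/kg was given once a day for 5 days, the tibialis anterior was injured 2 days later with 50 uL of 1.2% BaCl2, and Dendra2+ myofibers were taken at 14 days post injury. Fragments of about 500 bp were immunoprecipitated after fixation with 1% formaldehyde, with 1 antibody per mark, so a difference between marks cannot be told apart from a difference between antibodies. The wild-type, vhl-/- and HIF1dPA groups of the series had the same driver, reporter, tamoxifen and injury. They are used below only to say how often regions recurred and whether the distance between the marks differed from wild-type. The driver acts in Pax7-expressing cells, so nuclei of other cells that came along with the fibers were not targeted.

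H3K9me3 and H3K27me3 are both found at silent chromatin but are laid down by separate machineries. H3K9me3 is written by enzymes such as SETDB1 and SUV39H, is bound by HP1 proteins, and is known for keeping repeats, centromere-flanking chromatin and clustered zinc finger and sensory receptor genes silent. H3K27me3 is written by the Polycomb repressive complex PRC2 and read by PRC1, and is known for covering CpG-rich promoters of developmental regulators in cells that do not use them.

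The promoters under H3K27me3 in these lists are shown first, with the few found under H3K9me3, to show the range of their CpG content. The windows are the RefSeq promoters of build GRCm38.p6, 250 bases before to 50 bases after each start, read 5′ to 3′ on the gene's strand, with each CpG in capitals (CG reads the same on both strands). Shown are the 3 windows with the highest mean score percentile among those overlapped by a peak in all 3 H3K27me3 lists and no H3K9me3 list, followed by the 2 highest among developmental regulators. They belong to Igf2bp3, a fetal RNA-binding protein gene (chr6:49214905-49215204, minus strand, 25 CpG), BC107364 (chr3:96452257-96452556, minus strand, 46 CpG), Tchh, the hair follicle protein trichohyalin (chr3:93442080-93442379, plus strand, 1 CpG), Otx2, a homeobox gene of head and brain patterning (chr14:48667459-48667758, minus strand, 8 CpG), and Sox21, an HMG-box transcription factor of the nervous system (chr14:118236981-118237280, minus strand, 22 CpG). No window was overlapped in all 3 H3K9me3 lists. The last pair below is therefore the 1 window found in 2 H3K9me3 lists, of the gene model Gm9758 (chr5:14914840-14915139, minus strand, 0 CpG), and the highest-scoring window of a Zfp gene, Zfp984 (chr4:147809739-147810038, minus strand, 9 CpG), which had a peak in 1 H3K9me3 list.
Igf2bp3: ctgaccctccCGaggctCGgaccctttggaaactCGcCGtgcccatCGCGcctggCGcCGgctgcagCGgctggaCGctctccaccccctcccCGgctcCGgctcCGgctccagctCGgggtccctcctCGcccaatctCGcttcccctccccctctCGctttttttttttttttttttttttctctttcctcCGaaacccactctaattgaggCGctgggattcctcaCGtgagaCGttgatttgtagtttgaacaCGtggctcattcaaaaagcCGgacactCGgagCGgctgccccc
BC107364: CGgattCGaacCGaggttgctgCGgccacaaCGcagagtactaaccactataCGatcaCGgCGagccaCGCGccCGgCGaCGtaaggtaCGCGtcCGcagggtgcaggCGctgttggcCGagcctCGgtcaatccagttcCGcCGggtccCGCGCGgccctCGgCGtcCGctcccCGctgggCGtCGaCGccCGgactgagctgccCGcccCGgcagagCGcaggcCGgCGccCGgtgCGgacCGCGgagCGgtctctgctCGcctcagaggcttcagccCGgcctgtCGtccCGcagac
Tchh: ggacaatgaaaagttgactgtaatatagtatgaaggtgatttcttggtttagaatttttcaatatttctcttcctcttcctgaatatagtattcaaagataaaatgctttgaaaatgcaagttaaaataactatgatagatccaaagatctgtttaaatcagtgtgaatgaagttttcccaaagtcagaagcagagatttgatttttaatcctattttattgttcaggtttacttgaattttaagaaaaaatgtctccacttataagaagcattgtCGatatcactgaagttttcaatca
Otx2: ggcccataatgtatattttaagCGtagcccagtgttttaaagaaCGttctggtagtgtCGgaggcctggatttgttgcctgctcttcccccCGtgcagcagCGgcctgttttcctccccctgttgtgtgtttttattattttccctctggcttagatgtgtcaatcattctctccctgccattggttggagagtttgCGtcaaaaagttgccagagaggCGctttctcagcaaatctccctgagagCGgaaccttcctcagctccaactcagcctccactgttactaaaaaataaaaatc
Sox21: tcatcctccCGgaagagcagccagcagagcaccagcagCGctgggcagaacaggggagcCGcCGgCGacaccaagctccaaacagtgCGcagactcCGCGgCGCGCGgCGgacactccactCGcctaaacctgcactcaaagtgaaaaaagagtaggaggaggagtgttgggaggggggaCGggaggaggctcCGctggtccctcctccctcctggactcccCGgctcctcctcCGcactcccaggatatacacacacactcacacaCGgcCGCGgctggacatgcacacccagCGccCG
Gm9758: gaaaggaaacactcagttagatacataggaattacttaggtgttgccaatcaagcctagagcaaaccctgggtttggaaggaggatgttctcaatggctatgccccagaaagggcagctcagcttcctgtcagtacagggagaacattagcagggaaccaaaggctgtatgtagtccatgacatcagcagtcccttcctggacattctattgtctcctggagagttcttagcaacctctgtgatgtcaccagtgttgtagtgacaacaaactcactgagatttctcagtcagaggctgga
Zfp984: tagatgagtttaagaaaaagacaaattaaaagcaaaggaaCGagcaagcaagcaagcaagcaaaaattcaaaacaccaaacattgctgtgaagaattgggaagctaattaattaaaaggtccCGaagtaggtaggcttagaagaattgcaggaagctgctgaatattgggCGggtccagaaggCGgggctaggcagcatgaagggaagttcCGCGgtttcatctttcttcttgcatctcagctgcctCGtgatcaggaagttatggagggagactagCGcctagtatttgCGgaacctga

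RefSeq promoter windows lay less often under H3K9me3 than under H3K27me3. Of 31396 autosomal windows, 5, 2 and 8 were overlapped in the H3K9me3 lists of replicates 1, 2 and 3, against 248, 189 and 226 in the H3K27me3 lists. The mean number of CpG per overlapped window was 4.00, 3.00 and 11.9 under H3K9me3 and 15.4, 16.8 and 17.5 under H3K27me3, against 12.6 over all windows. The marks did not overlap in this measure, with means of 6.29 ± 4.86 and 16.6 ± 1.08 (SD, n = 3 each; exact two-sided permutation p = 0.1, the smallest that 3 against 3 allows). The H3K9me3 values rest on at most 8 windows per list. The authors' gene models also differ from RefSeq: of the peaks that the authors placed within 1 kb of a start, 9.68%, 10.2% and 17.5% of H3K9me3 and 58.4%, 57.5% and 55.5% of H3K27me3 peaks were within 1 kb of a RefSeq start. Windows with at least 10 CpG made up 0%, 0% and 50.0% of those under H3K9me3, 66.9%, 64.6% and 69.9% of those under H3K27me3 and 44.0% of all windows. Mean GC content overlapped between marks, at 45.2%, 47.7% and 56.0% against 55.6%, 57.2% and 58.1% (exact permutation p = 0.2). As the Tchh window shows, a CpG-rich window was not a condition for H3K27me3: the 36 windows found in all 3 H3K27me3 lists held 1 to 46 CpG, and 17 of them held at least 10.

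To ask how much of the genome each mark occupied, peak numbers and covered lengths were compared. H3K9me3 lists held 1014, 780 and 1306 autosomal peaks in replicates 1, 2 and 3, and H3K27me3 lists held 2455, 2342 and 2574. Every H3K27me3 list was longer than every H3K9me3 list, with an H3K9me3 to H3K27me3 ratio of geometric means of 0.412 (log2 difference -1.28). Covered length was 893, 719 and 938 kb under H3K9me3 and 2255, 1926 and 2305 kb under H3K27me3, a ratio of 0.392. Both differences had an exact two-sided permutation p of 0.1, the value of any measure below in which the 3 lists of one mark all lie on one side of the other 3. No such test can pass 0.05, and the separation of the groups is the whole of the evidence. The study describes the 3 replicates per mark as biological. No read totals come with the lists, so each library's depth is unknown and peak numbers are numbers of calls.

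Peaks of the 2 marks differed in shape and spacing. The median peak width was 611, 623 and 580 bp under H3K9me3 and 776, 681 and 741 bp under H3K27me3, so the typical H3K27me3 peak was wider in every list. The widest peaks were nevertheless those of H3K9me3, with longest peaks of 8691, 8271 and 8005 bp against 5428, 4876 and 6506 bp. Peaks of 3 kb or more made up 3.06%, 3.08% and 1.07% of the H3K9me3 lists and 0.692%, 0.470% and 0.738% of the H3K27me3 lists. H3K9me3 replicate 3 sat nearest to H3K27me3 here, and it also had the most peaks of the mark. Both results depended on how peaks were counted. With 780 strongest peaks per list, the shares of 3 kb or more overlapped, at 3.85%, 3.08% and 1.67% against 2.18%, 1.28% and 2.31% (exact permutation p = 0.3), and they also overlapped when 2 kb was the limit (exact permutation p = 0.3). In addition, among peaks with a score of at least 100 the median widths no longer separated (log2 difference 0.05, exact permutation p = 0.8), and after peaks within 1000 bp were joined the share of 3 kb or more was higher under H3K27me3 (difference -2.70 percentage points, exact permutation p = 0.1). H3K27me3 peaks lay close together. The share with another peak of the same list within 100 kb was 43.8%, 47.6% and 43.0% for H3K9me3 and 71.3%, 72.8% and 72.0% for H3K27me3, and with 780 strongest peaks taken from every list it was 42.7% to 47.6% and 74.7% to 76.7%.

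**Figure D1:**
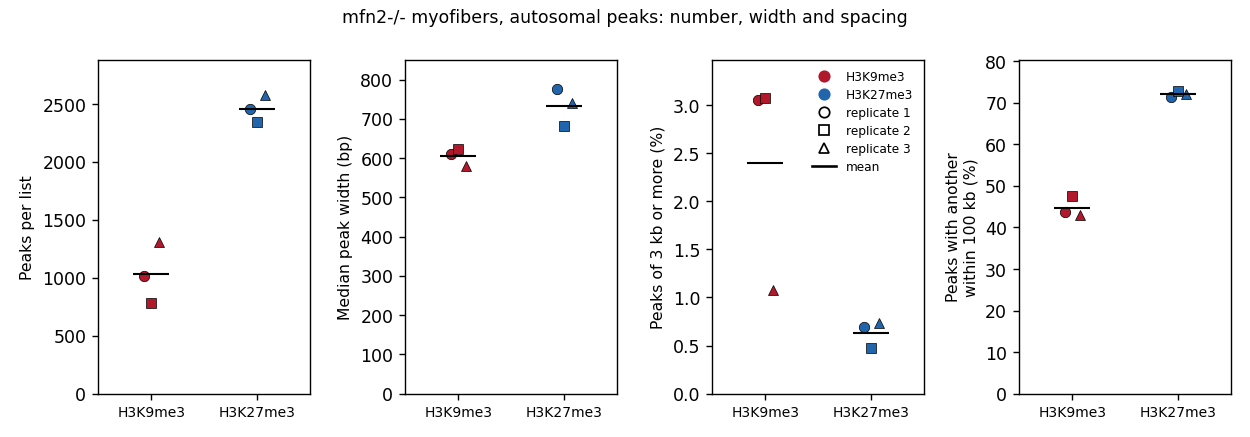
Peak number, median width in bp, share of peaks of 3 kb or more, and share of peaks with another of the same list within 100 kb, each for the 3 H3K9me3 (red) and 3 H3K27me3 (blue) lists of mfn2-/- myofibers on chromosomes 1 to 19; point shapes are replicates and bars are means. The marks separate in all 4 panels, with H3K9me3 replicate 3 at 1.07% in the third panel and the other H3K9me3 lists at 3.06% and 3.08%.

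To ask where peaks lie relative to genes, the feature class that the authors assigned to each peak was used, in which promoters reach 3 kb from a start site. Promoters held 11.8%, 14.0% and 10.8% of H3K9me3 peaks and 51.9%, 52.0% and 52.6% of H3K27me3 peaks. Means were 12.2% ± 1.62 and 52.2% ± 0.418 (SD, n = 3 each), a difference of -40.0 percentage points, and the H3K27me3 lists stayed within 1 point of each other. H3K9me3 peaks were instead mostly intergenic, at 59.2%, 53.6% and 58.7% against 30.0%, 31.2% and 29.3%. Introns held 22.7%, 24.9% and 24.0% of H3K9me3 peaks and 12.9%, 12.6% and 13.2% of H3K27me3 peaks. Exons and UTRs took small shares of both marks: exons held 2.91% to 3.72% of H3K9me3 and 2.09% to 2.53% of H3K27me3 peaks, and UTRs 2.76% to 3.72% and 2.09% to 2.89%. The UTR ranges overlap, while the promoter, intron, intergenic and exon ranges do not.

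**Figure D2:**
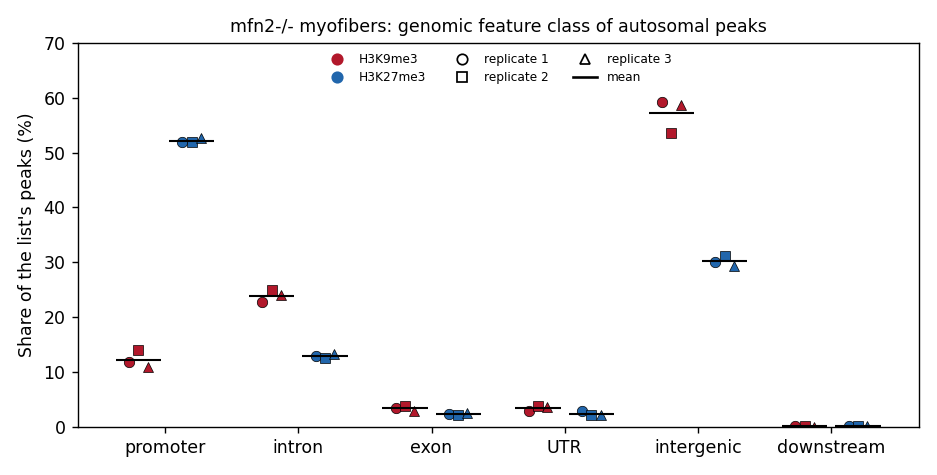
Share of autosomal peaks in each genomic feature class assigned by the authors, for the 3 H3K9me3 (red) and 3 H3K27me3 (blue) mfn2-/- lists; point shapes are replicates and bars are means. Promoter peaks are at 10.8% to 14.0% for H3K9me3 and 51.9% to 52.6% for H3K27me3, and intergenic peaks at 53.6% to 59.2% and 29.3% to 31.2%.

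The strength of a peak moved with its place. The score of a peak (the p-value of the call as -10 × log10) was ranked only within its own list. Of the 25% of H3K27me3 peaks with the highest scores, 62.5% ± 0.647 were at promoters, against 43.5% ± 0.333 of the 25% with the lowest (SD, n = 3 lists). For H3K9me3 these shares were 18.4% ± 2.88 and 9.63% ± 3.73. Repeatability also fell with the score: 66.1% ± 0.930 of the strongest H3K27me3 peaks overlapped a peak in each other list of the mark, averaged over lists, and 19.2% ± 3.83 of the weakest, against 50.4% ± 9.11 and 9.35% ± 1.67 for H3K9me3.

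Lists of unlike marks shared few base pairs. Each list covered a small part of the genome, so unrelated lists would also share little, and no chance level was computed. Similarity of lists was measured by the Jaccard index, which divides the length covered in both lists by the length covered in at least 1. It was 0.127 to 0.166 for the 3 pairs of H3K9me3 lists, 0.163 to 0.175 for the 3 pairs of H3K27me3 lists and 0.00300 to 0.00388 for the 9 pairs of unlike marks. The mean was 0.157 within marks and 0.00345 between them (exact permutation p = 0.1). Pairs of unlike marks with the same replicate number had a mean of 0.00350 and the other pairs 0.00342. Unlike marks shared 8.11 to 12.2 kb, which is 1.07% to 1.45% of the H3K9me3 and 0.400% to 0.554% of the H3K27me3 base pairs. Even within a mark, only 202.8 to 229.6 kb of H3K9me3 and 592 to 679 kb of H3K27me3 were shared by a pair of lists.

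Peaks of all 6 lists were merged into 7517 regions where they overlapped by at least 1 bp. Of these, 114 (1.52%) were in all 3 H3K9me3 lists and no H3K27me3 list, and 475 (6.32%) were in all 3 H3K27me3 lists and no H3K9me3 list. Most regions came from 1 list only, 2254 for H3K9me3 and 3721 for H3K27me3. Promoters held 28 of the 114 H3K9me3 regions and 315 of the 475 H3K27me3 regions. Their median widths were 2100 and 2271 bp. Of the 114 H3K9me3 regions, 60 were in all 3 H3K9me3 lists of wild-type, 35 of vhl-/- and 36 of HIF1dPA myofibers. Of the 475 H3K27me3 regions, 271 were in all 3 H3K27me3 lists of wild-type, 322 of vhl-/- and 14 of HIF1dPA myofibers, where 192 were in at least 1. The HIF1dPA H3K27me3 lists were far shorter, with 474, 493 and 496 autosomal peaks. Those of wild-type held 3427 to 3763 and those of vhl-/- 3626 to 4023. Shorter lists and a loss of the mark cannot be told apart as reasons for the low count in HIF1dPA, and neither was tested.

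Among the 10 highest-ranking regions marked by H3K9me3 alone, 4 were assigned to zinc finger genes. First came an intergenic region assigned to 2010315B03Rik (chr9:124256140-124258437, mm10), with scores of 1259, 1110 and 1347, the rank 1, 2 and 5 peaks of their lists. It was followed by the 3′ UTR of Slc30a4, a zinc transporter gene (chr2:122680931-122682727), with scores of 824, 698 and 924. Next were 4 regions of Zfp genes, which encode zinc finger proteins: Zfp998 (chr13:66429156-66435613), Zfp987 (chr4:146123886-146126676), Zfp985 (chr4:147579607-147587522) and Zfp534 (chr4:147673712-147676312). The Zfp998 region scored 561, 457 and 463 and was annotated as a promoter (RefSeq places 2410141K09Rik there), while those of Zfp987 and Zfp985 were 3′ UTRs. The remaining 4 of the 10 were assigned to Pisd-ps1, Gm8935, Cdk5rap2 and Gm10139. The Cdk5rap2 region, at chr4:70377663-70378605, lies in an intron of this centrosomal protein gene and scored 202, 223 and 377. All 10 regions were also in 4 to 9 of the 9 H3K9me3 lists of the other genotypes.

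The 10 highest-ranking regions marked by H3K27me3 alone included several at regulators of development. The first was the promoter of Nkx2-4, a homeobox gene of the hypothalamus and thyroid (chr2:147085835-147091556), with scores of 389, 376 and 731. Second was Myh8, the neonatal myosin heavy chain (chr11:67281766-67284884, annotated 1 to 2 kb from a start site), with scores of 402, 511 and 414. The study reported less H3K27me3 within Myh8 in mfn2-/- than in wild-type myofibers. A rank within a list does not give the level relative to wild-type. Of the other regions, 1 was intergenic and assigned to Igf2bp1, a fetal RNA-binding protein gene (chr11:96008296-96012123). Further regions lay at Plag1, a growth-promoting zinc finger factor (chr4:3930014-3937063), and beside Hoxc13 (chr15:102907836-102915497). Another 4 were assigned to Gm26553, Gm4895, Coil and Mir148a. These 10 regions were in 7 to 9 of the 9 H3K27me3 lists of the other genotypes.

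For each mark the 3 widest regions were taken. For H3K9me3 they were at Platr16 (chr4:145446258-145454121), with peaks of 7864, 5740 and 5666 bp, at Gm13036 (chr4:146049879-146060813), with 8691, 7979 and 5138 bp, and at Gm21847 (chr5:15507463-15514766), with 5735, 6724 and 4789 bp. For H3K27me3 they were the regions of Gm26553, with 4346, 4876 and 3583 bp, Nkx2-4, with 4129, 3283 and 5280 bp, and Hoxc13, with 3648, 3188 and 2587 bp. Of all peaks of 3 kb or more, 18 of 31, 17 of 24 and 7 of 14 in the H3K9me3 lists were assigned to gene models named Gm or Rik, and none to a gene of the developmental lists described next. In the H3K27me3 lists, 3 of 17, 4 of 11 and 8 of 19 were assigned to such a developmental gene.

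Gene groups separated the marks in both directions. Of 3784 genes with a peak in any of the 6 lists, 140 (3.70%) had one in all 3 H3K9me3 lists and no H3K27me3 list, and 491 (13.0%) the reverse. Of the 21 gene lists examined, 15 (71.4%) had shares that did not overlap between marks, 4 higher under H3K9me3 and 11 higher under H3K27me3. The lists were chosen with earlier results of these data known, so this count is a description and not a test. The list of sarcomeric myosin heavy chains separated through Myh8 alone. Taking the 5 lists of developmental regulators and signals together, 151 of the 219 members with a peak (68.9%) were in all 3 H3K27me3 and no H3K9me3 list, and 0 were the reverse. These lists took 644, 632 and 647 peaks of the H3K27me3 lists, which is 26.1% ± 0.930, and 1, 3 and 6 peaks of the H3K9me3 lists, which is 0.314% ± 0.190 (SD, n = 3 each).

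Hox cluster genes, which set position along the body axis, had 53, 52 and 53 H3K27me3 peaks and 0 H3K9me3 peaks in every list. The peaks were assigned to 19 of the 39 genes, and 13 of these had a peak in all 3 H3K27me3 lists. Hoxc13 alone took 13, 15 and 10 peaks, Hoxd13 had 5, 4 and 3, Hoxd11 had 3, 3 and 3, and Hoxb13 had 3, 7 and 6. Counting by 1 Mb windows, the Hoxb cluster (chromosome 11, 96 to 97 Mb) held 50, 50 and 58 H3K27me3 peaks, the most of any window, and the Hoxd cluster (chromosome 2, 74 to 75 Mb) held 35, 33 and 28. Both windows had 0 H3K9me3 peaks.

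Other homeobox, paired-box and LIM genes carried 345, 314 and 330 H3K27me3 peaks and 0, 1 and 2 H3K9me3 peaks. Of 99 members with a peak, 76 were in all 3 H3K27me3 and no H3K9me3 list. Pax2, a regulator of kidney and midbrain, had 12, 9 and 7 peaks, Pou3f2, a neural POU factor, 8, 13 and 9, and Isl1, a LIM factor of motor neurons and heart, 5, 5 and 5. Msx1, a homeobox gene of limb and craniofacial mesenchyme, was the 1 member with both marks, with 1, 3 and 3 H3K27me3 peaks and 2 H3K9me3 peaks in replicate 3. The T-box, Sox, Fox, Gata and Zic genes had 151, 155 and 158 H3K27me3 and 1, 1 and 3 H3K9me3 peaks. Zic4, a cerebellar zinc finger factor, took 18, 13 and 20 of the former and Gata4, a heart and gut factor, 14, 12 and 14, both among the 3 genes with most peaks under this mark. Gata2 and Gata6, blood and endoderm factors, carried H3K9me3 peaks in 2 lists each, with scores of 54.7 to 86.2, beside their H3K27me3 peaks.

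The bHLH lineage genes had 71, 85 and 79 H3K27me3 peaks and 0, 1 and 0 H3K9me3 peaks. Neurog2, which commits cells to the neuronal fate, had 5, 9 and 8 peaks with best scores of 389, 176 and 200, and Hand2, a heart and limb factor, had 5, 10 and 8. Twist1, a mesenchymal factor, had 4, 5 and 7 and also the single H3K9me3 peak of the group. Signal genes of the Wnt, Fgf, Bmp, Gdf and hedgehog families had fewer peaks, 24, 26 and 27 under H3K27me3 and 0, 0 and 1 under H3K9me3, and 10 of their 28 members with a peak were in all 3 H3K27me3 lists alone. The H3K9me3 peak belonged to Fgf10, which had no H3K27me3 peak. Other genes to which the authors assigned many H3K27me3 peaks were Galnt2l, with 15, 12 and 13, and Sp8, a limb patterning factor, with 11, 12 and 12. The best-scoring Galnt2l peaks began at 121117607, 121086777 and 121086252 on chromosome 8, and its single H3K9me3 peak at 123600419. Peaks assigned to Galnt2l thus lay far apart and may belong to other genes.

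Peaks assigned to zinc finger protein genes named Zfp were mainly those of H3K9me3, with 151, 149 and 173 peaks against 9, 5 and 11 under H3K27me3. That is 14.9%, 19.1% and 13.2% of the H3K9me3 lists and 0.367%, 0.213% and 0.427% of the H3K27me3 lists. The family has 406 autosomal RefSeq entries, so most had no peak: 116 members had a peak, and 101 had an H3K9me3 peak. Of the 116, 41 (35.3%) were in all 3 H3K9me3 and no H3K27me3 list and 2 the reverse. Among all genes with a peak, 140 of 3784 (3.70%) were in all 3 H3K9me3 and no H3K27me3 list. Zfp985 had 7, 10 and 8 H3K9me3 peaks with best scores of 292, 473 and 356, Zfp979 had 10, 6 and 7, Zfp998 had 4, 7 and 4, and Zfp534 had 6, 3 and 5. The exceptions were Zfp804a, with 1, 1 and 2 H3K27me3 peaks, and Zfp618, with 1, 1 and 2, neither of which had an H3K9me3 peak. Many clustered Zfp genes are near-identical copies, and how the authors treated reads that match several places is not given in the sources used here, so the split of peaks among them is uncertain.

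**Figure D3:**
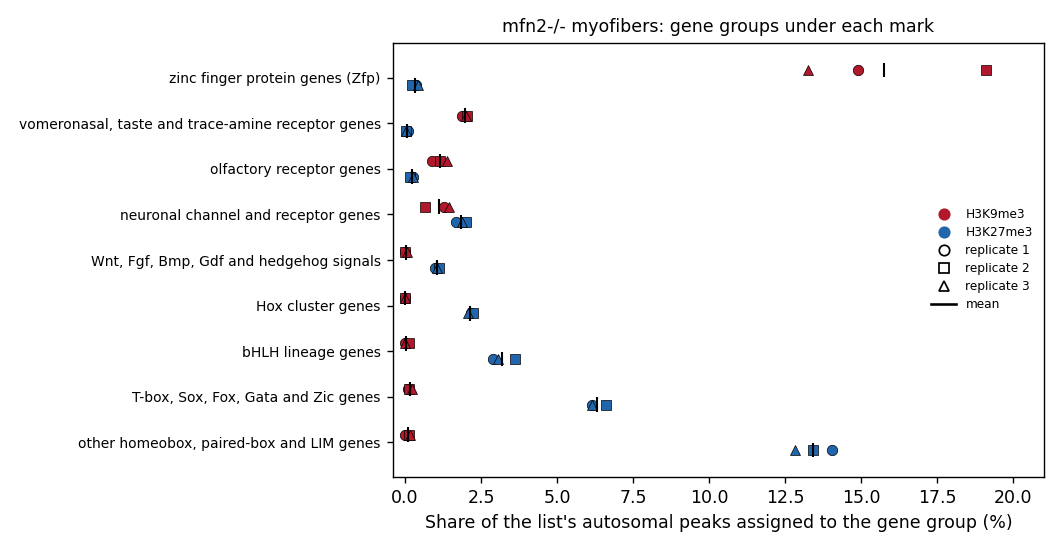
Share in percent of each list's autosomal peaks assigned to 9 gene groups, for H3K9me3 (red) and H3K27me3 (blue) in mfn2-/- myofibers; point shapes are replicates and bars are means. Zfp genes take 13.2% to 19.1% of H3K9me3 peaks and at most 0.427% of H3K27me3 peaks, while homeobox, paired-box and LIM genes outside the Hox clusters take 12.8% to 14.1% of H3K27me3 peaks and at most 0.153% of H3K9me3 peaks.

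H3K9me3 peaks in Zfp genes lay toward the end of the gene, where the exon that encodes the zinc fingers usually is. Of the peaks whose centre fell inside their Zfp gene as RefSeq places it, 69 of 86, 60 of 79 and 80 of 102 were in the downstream 50% of the gene, and 38, 41 and 48 in the last 20%. That is 80.2%, 75.9% and 78.4% in the downstream 50%, against 58.5%, 48.7% and 54.3% of the H3K9me3 peaks inside all other genes. The difference, 24.4 percentage points within libraries, was of the same sign in 3 of 3 lists (exact sign-flip permutation p = 0.25, the smallest that 3 libraries allow). H3K27me3 peaks inside genes other than Zfp lay toward the start, with 31.6%, 31.6% and 31.0% in the downstream 50%. Zfp peaks also ranked higher than the rest of their H3K9me3 lists, with median score percentiles of 69.8, 54.5 and 69.0 against 47.5, 48.7 and 47.5 for other peaks.

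Sensory receptor genes, also arranged in tandem arrays, were the other groups higher under H3K9me3. Vomeronasal, taste and trace-amine receptor genes had 19, 16 and 26 H3K9me3 peaks and 2, 1 and 1 H3K27me3 peaks. Their leading members were pseudogenes, with Vmn1r-ps2 at scores of 91.5, 178 and 166 and Vmn1r-ps60 at 112, 78.1 and 102. Olfactory receptor genes had 9, 9 and 18 H3K9me3 peaks and 6, 4 and 7 H3K27me3 peaks, from a family of 1420 autosomal RefSeq entries, and none of the 48 with a peak was in all 3 lists of either mark. Gene models named Gm or Rik, the fourth group, took 36.3%, 36.4% and 36.9% of H3K9me3 and 16.3%, 17.8% and 17.9% of H3K27me3 peaks. Among them Gm21847 had 7, 10 and 7 and Gm10139 7, 9 and 5 H3K9me3 peaks. AU041133 on chromosome 10, which is in none of the lists examined, had the most of any gene under this mark summed over the 3 lists, with 11, 8 and 9.

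Among neuronal channel and receptor genes, some had peaks of H3K9me3 and more had peaks of H3K27me3. They had 13, 5 and 19 H3K9me3 and 41, 47 and 48 H3K27me3 peaks. Of the 79 members with a peak, 7 had both marks, against 200 of 3784 (5.29%) of all genes with a peak, a difference that was not tested. Only 3 members had an H3K9me3 peak in all 3 lists. The potassium channel gene Kcnh5 (2, 1 and 1 H3K9me3 peaks) and the glutamate receptor gene Grik2 (2, 2 and 1) were on the H3K9me3 side. The glycine transporter gene Slc6a5 (3, 5 and 2 H3K27me3 peaks) and the glutamate transporter gene Slc17a6 (2, 3 and 2) were on the other. Kcnh5 also had 1 H3K27me3 peak in replicate 3, at another place (chr12:75175256, against chr12:74803747 for its H3K9me3 peak of replicate 1).

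Genes of the muscle fiber itself had few peaks of either mark. For scale, 3784 genes had a peak in any of the 6 lists, and RefSeq promoter windows belong to 25748 genes. Most genes thus had no peak, and the short lists below were not tested against that share. None of the 25 myofiber genes examined had a peak in any of the 6 lists, and of the 10 sarcomeric myosin heavy chain genes only Myh8 did, with 2, 1 and 1 H3K27me3 peaks and 0 H3K9me3 peaks. Myh1, Myh2, Myh4 and Myh7 of adult fibers and embryonic Myh3 had none, and neither did Mfn2, so these lists offer no check of the deletion. Among 15 myogenic regulators, Pax3, the embryonic muscle progenitor factor, had 13, 9 and 9 H3K27me3 peaks. Pax7, the muscle stem cell factor on which the driver was built, had 1 H3K27me3 peak of 546 bp in replicate 2 alone, with a score of 52.4, close to the lowest listed score of 50. Eya1 and Eya2 had H3K27me3 peaks in 2 lists each, and Eya1 also 1 H3K9me3 peak.

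Some markers of other cell types in muscle had peaks. Of 10 endothelial markers 3 had a peak (Flt1, Sox17 and Erg), of 10 fibroblast and fibro-adipogenic markers 4 (Dcn, Tcf21, Pdgfra and Osr1), of 11 macrophage and immune markers 1 (Cd3e) and of 9 Schwann and neuronal markers 1 (Rbfox3). All but Dcn had their peaks in H3K27me3 lists, and Flt1 in both. These counts were not tested against the share of all genes, 3784 with a peak beside 25748 with a RefSeq promoter window. Tcf21, a mesenchymal bHLH factor, had 4, 9 and 7 H3K27me3 peaks.

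The genes of the 2 silencing systems were also compared. Of 19 genes of the H3K27 methylation machinery, 5 had an H3K27me3 peak and 0 an H3K9me3 peak. Among all genes, 2397 had an H3K27me3 peak and 1587 an H3K9me3 peak, and the 19 were not tested against them. The 5 machinery genes included the PRC1 subunit genes Cbx8, with 5, 7 and 4 peaks, Cbx2, with 1, 1 and 1, and Bmi1, with 2, 2 and 2. Of 19 genes of the H3K9 methylation machinery, Setdb1 and Atf7ip, which encode an H3K9 methyltransferase and its partner, and the demethylase gene Kdm3a each had 1 H3K9me3 peak in 1 list, and Kdm4d had 1 H3K27me3 peak. Imprinted genes were split without separation, with 1, 3 and 5 H3K9me3 and 3, 4 and 6 H3K27me3 peaks. Grb10, an imprinted growth inhibitor, had 1, 4 and 3 H3K27me3 peaks, while Rasgrf1 and Airn had H3K9me3 peaks in 2 lists each. Clustered protocadherin genes had 1, 0 and 2 H3K9me3 peaks and 0 H3K27me3 peaks.

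Very few regions had peaks of both marks. Of the 7517 regions, 21 had a peak in at least 1 list of each mark, 12 in at least 2 of each and 9 in all 6. The first by score was at Gm5614 (chr9:35304699-35305934), with H3K9me3 scores of 578, 919 and 1927 and H3K27me3 scores of 590, 866 and 704, the rank 1, 1 and 2 peaks of the H3K27me3 lists. Next came Gm10800 (chr2:98665828-98667815), Gm9075 (chr12:3109388-3110645), Gm10801 (chr2:98661690-98664476) and Chl1 (chr6:103648658-103649787). The Gm10801 region held the highest listed score, 3100, in H3K9me3 replicate 3, with 770 and 1641 in replicates 1 and 2. All 5 were in each of the 9 H3K9me3 lists and in 5 to 9 of the 9 H3K27me3 lists of the other genotypes. How the input was used is not given, so both marks at these places cannot be told apart from signal that does not depend on the antibody. Among the rest of the 12, the 3 regions assigned to 9230019H11Rik on chromosome 10 were in 3 H3K9me3 and 0 H3K27me3 lists of the other genotypes. These 12 regions held most of the shared base pairs: without them the marks shared 0.821 kb on average (0 to 2.43 kb) in place of 10.4 kb, with 12 to 15 peaks removed per list. Removing them, a step added after the data were seen, moved the difference in promoter share to -40.5 percentage points.

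At the level of genes, 200 of 3784 had peaks of both marks, 12.6% of the genes with H3K9me3 and 8.34% of those with H3K27me3. Only 9 had both in all 6 lists. Genes such as Gata6 and Msx1 thus held the marks at separate places, since no region of either is among the 21.

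The marks were spread differently over chromosomes. The share of a list's peaks on a chromosome did not overlap between marks for 14 of 19 chromosomes (73.7%), 7 higher under H3K9me3 and 7 under H3K27me3. The largest difference was on chromosome 2, which held 3.75%, 3.85% and 3.60% of H3K9me3 peaks and 11.5%, 11.0% and 12.5% of H3K27me3 peaks. Chromosome 17 went the other way, with 9.57%, 13.3% and 8.19% against 4.11%, 3.25% and 3.54%, and chromosome 10 likewise, with 10.2%, 8.97% and 8.88% against 4.52%, 4.36% and 4.58%. Each of these had an exact permutation p of 0.1 and an adjusted p of 0.136 over the 19 chromosomes (Benjamini-Hochberg). As a description over 19 chromosomes, which share the same lists, the H3K27me3 share followed the share of RefSeq genes (Spearman rho 0.692, Pearson r 0.649) and the H3K9me3 share did not (0.0772 and 0.0303).

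**Figure D4:**
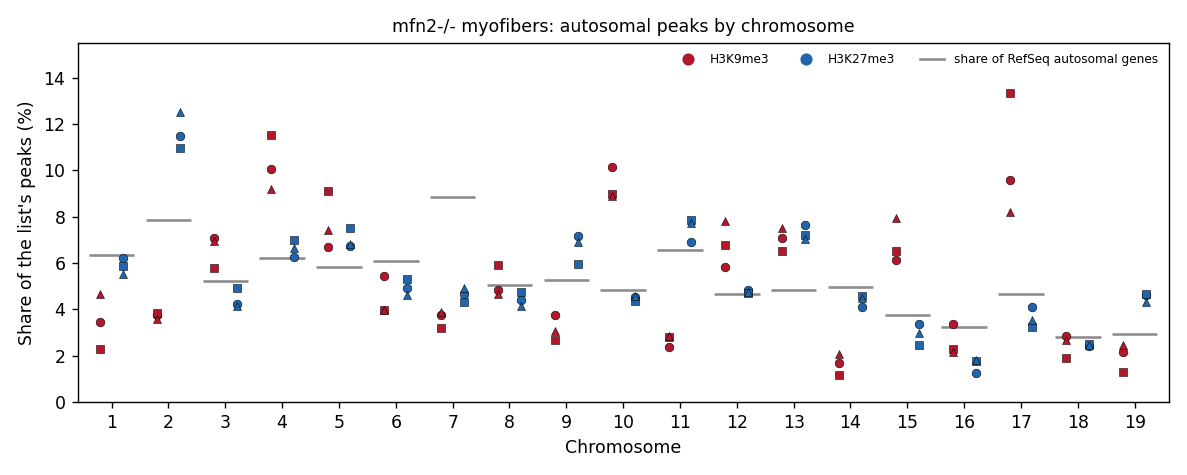
Share in percent of each list's peaks on chromosomes 1 to 19 for the 3 H3K9me3 (red) and 3 H3K27me3 (blue) mfn2-/- lists, with point shapes for replicates and grey bars for the share of RefSeq autosomal genes on the chromosome. Chromosome 2 holds 11.0% to 12.5% of H3K27me3 and 3.60% to 3.85% of H3K9me3 peaks, and chromosome 17 holds 3.25% to 4.11% and 8.19% to 13.3%.

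Local accumulations of each mark were counted in windows of 1 Mb. The 1 Mb window with most H3K9me3 peaks was chromosome 4, 147 to 148 Mb, with 42, 32 and 37, along with 1, 0 and 0 H3K27me3 peaks and 9 Zfp genes among its 38 RefSeq genes. It was followed by chromosome 4, 145 to 146 Mb (23, 28 and 27 peaks), chromosome 10, 82 to 83 Mb (28, 24 and 25), chromosome 13, 65 to 66 Mb (20, 20 and 24), and chromosome 17, 17 to 18 Mb (21, 22 and 16). All 4 of these windows had 0 H3K27me3 peaks and held 1 or 2 Zfp genes each. Under H3K27me3, the windows after the Hoxb and Hoxd clusters were those of Zic1 and Zic4 (chromosome 9, 91 to 92 Mb; 22, 19 and 23 peaks), the Hoxc cluster (chromosome 15, 102 to 103 Mb; 20, 21 and 21) and Pax6, the eye regulator (chromosome 2, 105 to 106 Mb; 20, 12 and 24).

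To ask whether the distance between the marks differed from that in wild-type myofibers, the mean H3K9me3 minus H3K27me3 difference was set against the same difference in 6 wild-type lists, with genotype labels permuted within each mark (400 arrangements) and p-values adjusted over the 4 measures tested. In wild-type lists, promoters held 15.8%, 14.1% and 14.8% of H3K9me3 peaks and 49.7%, 48.5% and 49.8% of H3K27me3 peaks. The difference between marks was thus -34.4 percentage points in wild-type and -40.0 in mfn2-/- myofibers, a change of -5.53 points (exact permutation p = 0.005, adjusted p = 0.02), with H3K9me3 lower and H3K27me3 higher in every mfn2-/- list. It missed the threshold with replicates as a block (exact permutation p = 0.1, the smallest possible), with promoters taken to 1 kb (-1.93 points, exact permutation p = 0.155), and with 780 strongest peaks per list (-8.68 points, exact permutation p = 0.055). In the last of these the wild-type H3K27me3 lists, at 59.5% to 63.5%, overlapped the mfn2-/- ones at 60.3% to 62.2%, and the H3K9me3 lists held 21.7% to 22.3% in wild-type and 12.7% to 14.0% in mfn2-/-.

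Spacing showed a larger shift that was borne by H3K9me3. In wild-type lists, 66.8%, 65.8% and 68.0% of H3K9me3 peaks had another within 100 kb, against 43.8%, 47.6% and 43.0% in mfn2-/- lists, while H3K27me3 lists were at 72.1% to 74.4% and 71.3% to 72.8%. The difference between marks was -6.00 points in wild-type and -27.3 points in mfn2-/- myofibers, and the change of -21.3 points did not pass the test (exact permutation p = 0.085, adjusted p = 0.17). With 780 strongest peaks per list the change was -29.4 points (exact permutation p = 0.005), and with neighbours counted within 20 kb it was -21.2 points (exact permutation p = 0.005). The wild-type H3K9me3 lists were longer, at 2176, 2407 and 2239 autosomal peaks. In lists of equal length the H3K9me3 shares were 66.5% to 67.1% in wild-type and 42.7% to 47.6% in mfn2-/-. The change in the difference of log2 peak number was -0.64 (exact permutation p = 0.295, adjusted p = 0.375), and that in median width 0.07 (exact permutation p = 0.375, adjusted p = 0.375). Sex is not in the labels. On the sex chromosomes, which were not used, wild-type H3K27me3 lists held 6 to 13 peaks and mfn2-/- lists 1016 to 1105. H3K9me3 lists went the other way, with 709 to 781 in wild-type and 107 to 192 in mfn2-/-. Sex can thus not be told apart from genotype here, and its part in these differences was not tested.

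**Figure D5:**
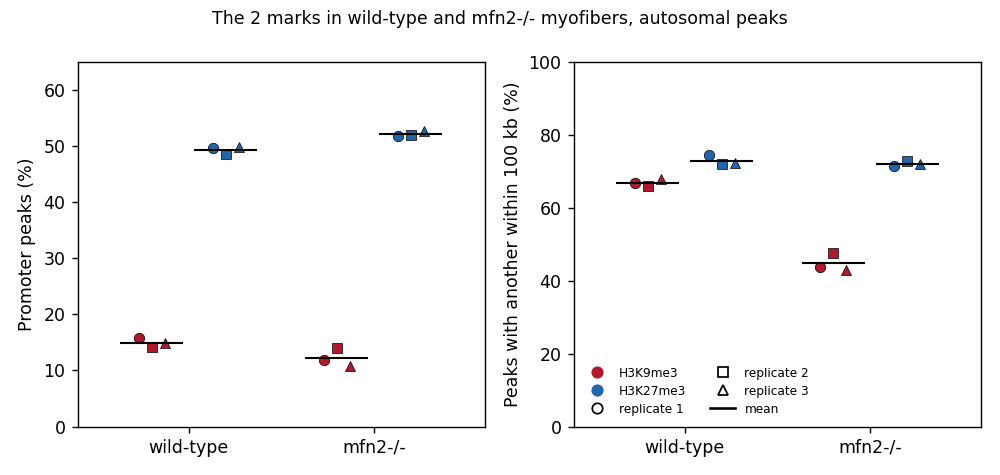
Share of autosomal peaks at promoters (left) and with another peak of the same list within 100 kb (right), in percent, for H3K9me3 (red) and H3K27me3 (blue) in 3 wild-type and 3 mfn2-/- lists each; point shapes are replicates and bars are means. The difference at promoters is -34.4 points in wild-type and -40.0 in mfn2-/-; in the right panel the mfn2-/- H3K9me3 lists, at 43.0% to 47.6%, lie below all other lists.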

How the data were processed

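H3K9me3 and H3K27me3 were measured by ChIP-seq in mfn2-/- myofibers, with 3 libraries per mark. The authors deposited 1 peak list per library, with an Ensembl gene and feature class per peak and a score, -10 × log10 of the p-value of the call (50 to 3100, so p of at most 1e-05). The submitters' processing notes name BWA 0.7.5, MACS, deepTools 3.5.0 and build mm10, without role or order, and the use of the input and the handling of duplicate reads are not given in the sources used here. The score grows with sequencing depth, which is unknown, and was used only within a list. No interval or detection floor was computed.

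Peaks on chromosomes 1 to 19 were kept. Libraries were grouped by genotype and antibody, compared with two-sided exact permutation tests over libraries (3 against 3, 20 arrangements) and adjusted by Benjamini-Hochberg. Regions merged peaks overlapping by at least 1 bp. A gene's peaks are those the authors assigned to it. Symbols of 3526 of 3784 genes (93.2%) matched RefSeq GRCm38.p6, the source of promoters and gene spans. The genes named were the sarcomeric Myh genes, Pax7 and Mfn2, the highest-ranking separating, shared and widest regions, the genes with most peaks, and up to 4 members per list. The genes with both marks, the exceptions among Zfp genes, and the genes with a peak in lists where 5 or fewer had one were named after their values were seen, as was the measure of position within genes. The members and lists were chosen with earlier results of these data known.

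Alternatives were a score of at least 100, 780 strongest peaks per list, joining peaks within 1000 bp, other promoter, width, distance and overlap limits, the replicate block, leaving out each library, and, added after the data were seen, removing regions with both marks. 1 region is not reported here. No pair of lists was identical. Region counts and tests were tested on simulated data. Scripts ran under Python 3.11.15 with pandas 2.3.3 and numpy 2.4.6, and plots were drawn with matplotlib 3.10.9.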

Additional observations from a re-analysis of the deposited data

Results flagged for a closer look

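The difference between H3K9me3 and H3K27me3 lists in the share of promoter peaks changed by -5.53 percentage points between wild-type and mfn2-/- myofibers (exact permutation p = 0.005, adjusted p = 0.02). It was singled out because the test of the change itself passed the threshold. H3K9me3 shares were 10.8% to 14.0% in mfn2-/- and 14.1% to 15.8% in wild-type lists, and H3K27me3 shares 51.9% to 52.6% and 48.5% to 49.8%. The same difference between marks was -36.8 points in vhl-/- and -25.1 in HIF1dPA myofibers, which were not tested against wild-type.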

How the results depend on the processing

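Of 280 values recomputed under alternatives, 250 kept their direction and their side of the threshold or, for counts, stayed within 1.5 times. Between marks the exact permutation test cannot go below p = 0.1, so a change of direction or a loss of separation is what could be seen. Separation was lost for peaks of 3 kb or more with 780 strongest peaks and with a limit of 2 kb (exact permutation p = 0.3 each), and for chromosome 10 with a score of at least 100 (exact permutation p = 0.2). With a score of at least 100, the log2 difference in median width turned to 0.047 and its change against wild-type to -0.058; the latter was -0.23 with 780 strongest peaks per list. Joining peaks within 1000 bp turned the difference in peaks of 3 kb or more to -2.70 points. With a score of at least 100, 26 regions and 28 genes separated for H3K9me3, 101 regions and 126 genes for H3K27me3, 9 gene lists did not overlap, and unlike marks shared 6.34 kb. With 780 strongest peaks, 175 regions and 205 genes separated for H3K27me3, and 8.36 kb were shared. Without the 12 regions with both marks 0.821 kb were shared. With a peak over at least 50% of the region required, 59 and 175 regions separated, and with promoter peaks only 29 genes for H3K9me3. Leaving out 1 library gave 114 to 184 regions and 141 to 240 genes for H3K9me3 and 475 to 774 regions and 495 to 662 genes for H3K27me3, since fewer lists must agree (184 without H3K9me3 replicate 1, 182 without replicate 2; 721, 774 and 726 without H3K27me3 replicates 1, 2 and 3; 212 and 240 genes without H3K9me3 replicates 1 and 2).

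The change in the promoter difference against wild-type was -8.68 points with 780 peaks, -1.93 with promoters to 1 kb and -5.53 with the replicate block, each short of significance, and -6.41 to -4.82 with 1 library left out. That in spacing was -23.7 points with a score of at least 100, -29.4 with 780 peaks and -21.2 within 20 kb, each with an exact permutation p of 0.005. The cause of these shifts was not tested. The labels do not say that equal replicate numbers share an animal. The deviations of libraries with equal numbers correlated at -0.09, 0.01 and -0.07, and those with unequal numbers at -0.04 to 0.11. With lists that hardly overlap between marks, such values cannot tell whether libraries with equal numbers came from the same animals. The replicate block moved the tests between marks from p = 0.1 to 0.25, the smallest that 3 pairs allow (exact permutation), and was not run for counts, chromosome and gene list shares.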
